A study of Rattus norvegicus with 6 samples.

Results

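Hpd, Hgd, Tdo2, Cdo1, Haao and Miox encode oxygenases that need iron or heme to break down amino acids and inositol. These 6 genes, of 19958 on a rat expression array, were chosen by name for their cofactor, and their probes were found by the gene symbol in the authors' deposited table. All 6 had a probe, 1 each, printed as 2 spots on the array, or as 10 spots for Tdo2.

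The study measured RNA in rats fed no iron and in liver-derived cells whose iron was chelated, on 6 one-colour arrays of 1 slide. Liver and kidney came from Wistar rats, which the labels also call mice, kept for 4 weeks on the purified AIN-93G diet with iron (control) or on the same diet lacking iron (iron-free). FAO cells, a rat hepatoma line kept in serum-containing medium, were exposed for 24 h to 100 µM deferoxamine, a chelator that binds iron, or to its vehicle (untreated). Neither age nor sex of the rats is given in the sources used here. Each group was 1 array made from pooled RNA, of 6 animals for each tissue and diet and of 3 cultures for FAO cells. With 1 array per group there was no replicate check, no test was possible, and a gene was called by size alone, when it was at least 2-fold higher or lower.

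These enzymes add oxygen to small molecules, and most hold a single iron atom without heme, bound by side chains of the protein. Tdo2 holds heme instead, and Miox holds a pair of iron atoms. Hpd (hydroxyphenylpyruvate dioxygenase) and Hgd (homogentisate dioxygenase) act one after the other in the breakdown of tyrosine, which in mammals takes place mostly in liver and also in kidney. Tdo2 (tryptophan dioxygenase) opens the ring of tryptophan as the first step of the kynurenine pathway in liver, and Haao (hydroxyanthranilate dioxygenase) acts late in that pathway, on the way to quinolinate and NAD. Cdo1 (cysteine dioxygenase) turns cysteine into cysteine sulfinate, the source of taurine and sulfate. Miox (myo-inositol oxygenase) opens the ring of inositol to form glucuronate and is best known from the kidney's proximal tubule.

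A level below is the log2 signal of a probe relative to the array's 75th percentile over probes well above background on all 6 arrays, so 0 means the signal at that percentile. Its error, written ±, is a standard error pooled over repeated spots of similar brightness, which covers spot noise alone, not animals or cultures. A signal is the linear brightness before that scaling, and the signal at the percentile differed between arrays, from 2553 on control liver and 3304 on iron-free liver to 9700 on untreated FAO cells. Levels are set side by side only for the same probe on different arrays. Their order and gaps between arrays rest on this scaling. An alternative, the median of detected probes (those well above background on that array), is given for some of them. Hepatocyte markers were well above background for 12 of 12 genes on both liver arrays and 10 of 12 on both FAO arrays (Apoa2 and Apoh were not), and proximal tubule markers for 12 of 12 on both kidney arrays. No member spot was saturated.

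The 250 bases before the gene start are shown for the only member called under iron deprivation (Haao) and for the 2 most unequal between liver and kidney (Tdo2, Miox). They are RefSeq promoter sequences of the GRCr8 assembly, a later build than the rn4 build named in the array headers, and run 5′ to 3′ along the gene's strand, ending at the base before the start. Capitals mark letters that match one of the motifs named in the next paragraph. Haao lies at chr6:16598075-16598324 on the plus strand, Tdo2 at chr2:169585587-169585836 on the minus strand and Miox at chr7:122284410-122284659 on the plus strand.
Haao: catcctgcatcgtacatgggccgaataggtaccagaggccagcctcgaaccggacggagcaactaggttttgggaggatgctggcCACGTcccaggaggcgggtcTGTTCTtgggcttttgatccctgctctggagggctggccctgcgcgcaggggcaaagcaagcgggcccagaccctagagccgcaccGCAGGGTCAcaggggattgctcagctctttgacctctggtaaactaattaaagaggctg
Tdo2: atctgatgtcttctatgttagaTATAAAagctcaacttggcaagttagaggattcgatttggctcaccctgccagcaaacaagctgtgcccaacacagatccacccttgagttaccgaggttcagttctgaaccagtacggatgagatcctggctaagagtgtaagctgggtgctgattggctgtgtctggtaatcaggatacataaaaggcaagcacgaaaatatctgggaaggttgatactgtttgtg
Miox: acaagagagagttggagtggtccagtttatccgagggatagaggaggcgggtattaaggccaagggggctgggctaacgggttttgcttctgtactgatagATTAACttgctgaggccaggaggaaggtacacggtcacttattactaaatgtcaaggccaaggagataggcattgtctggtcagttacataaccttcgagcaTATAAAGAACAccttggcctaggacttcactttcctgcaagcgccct

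Of the 6 members, 5 had a promoter in the RefSeq table (Hpd, Hgd, Tdo2, Haao and Miox). Motifs were searched on both strands, and their shares are of 33465 promoters of the same 250 bases. The TATA box letters TATAAA (12.9% of promoters) stood in the Miox promoter from base 47 before the start and in the Tdo2 promoter from base 228. TGTTCT (17.5%), a short form of the glucocorticoid receptor site, was found in the Haao and Miox promoters, and in Miox it overlapped the TATA letters. GTTAAT (6.45%), a short form of the site of HNF1, a transcription factor of liver and proximal tubule, was found in the Hpd and Miox promoters. ACGTG (16.6%), the core letters of the element bound by hypoxia-inducible factors, whose turnover needs iron, was found in the Haao promoter, and the related core GCGTG (25.9%) was found in none of the 5. The antioxidant response element TGACNNNGC (10.1%) was found in the Haao and Hpd promoters. CAAAGTCCA, a core of the HNF4 site (0.338%), was found in none, and the Hgd promoter held none of the motifs. These are matches of letters in a short window, not measured binding.

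**Figure D1:**
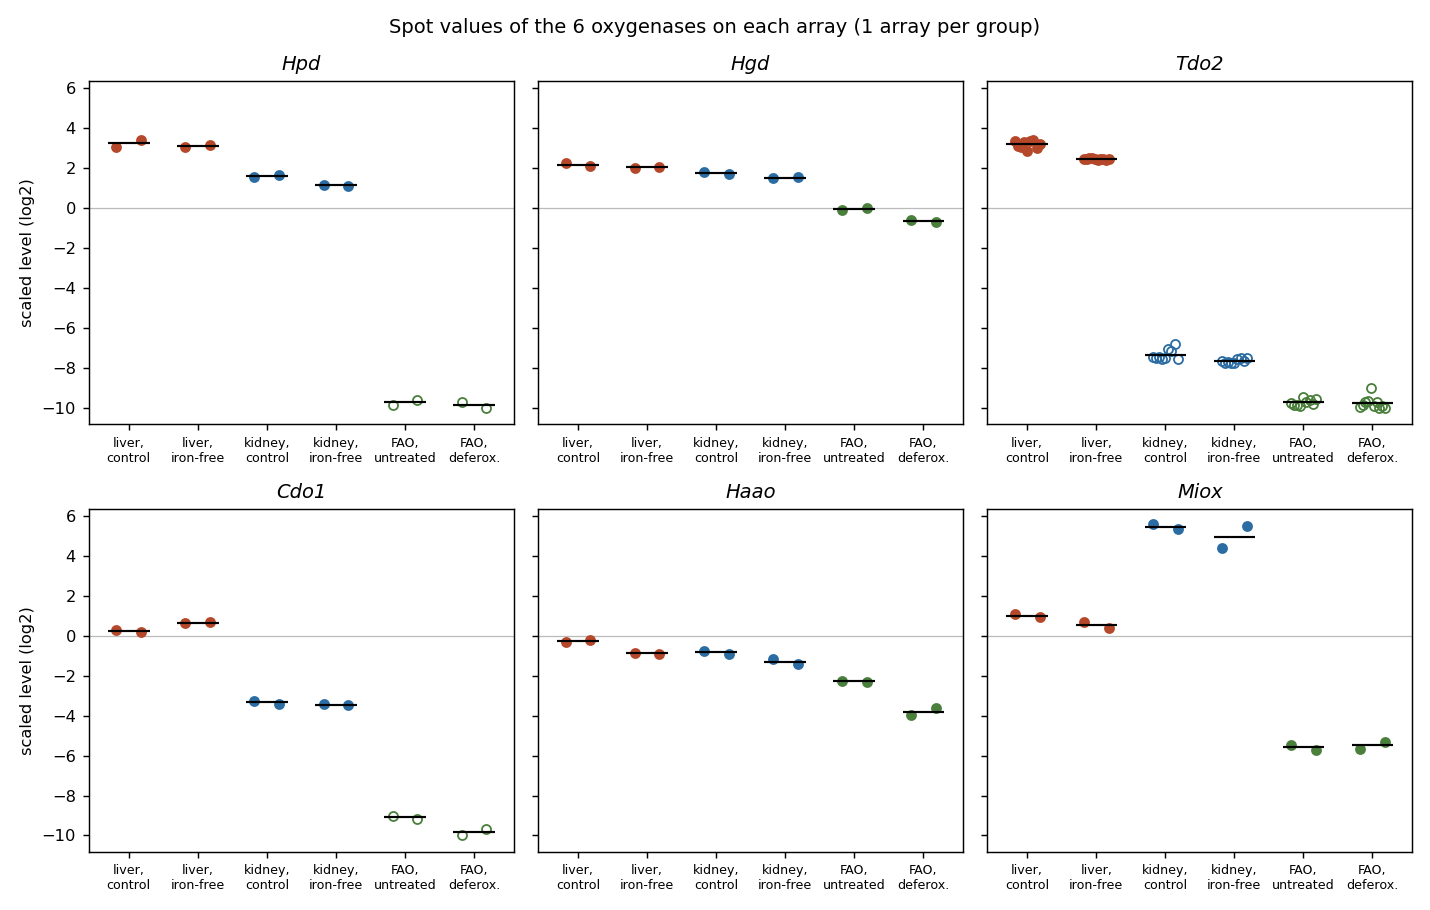
Scaled level (log2 signal relative to the array's 75th percentile, vertical axis) of each spot of the 6 oxygenases on the 6 arrays; filled circles are probes well above background, open circles probes that were not, spots flagged as outliers are left out and the black line is the probe's mean. Hpd and Tdo2 had levels of 3.24 and 3.20 on control liver, Miox reached 5.47 on control kidney, and Hpd, Tdo2 and Cdo1 were not well above background on either FAO array.

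Hpd was bright in both tissues and not above background in FAO cells. Its signal was 24208 on control liver, 28970 on iron-free liver, 8924 on control kidney and 7325 on iron-free kidney, against 11.5 on untreated and 7.98 on deferoxamine-treated FAO cells, neither of them well above background. As levels these were 3.24 ± 0.26 and 3.13 ± 0.06 in control and iron-free liver and 1.60 ± 0.14 and 1.16 ± 0.15 in control and iron-free kidney. The liver pair did not differ beyond 2 standard errors of the spots, whereas both liver levels exceeded both kidney levels.

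Hgd was detected on all 6 arrays and, under the scaling used throughout, was the most even of the 6 oxygenases over liver and kidney. The signal was 11537 on control liver, 13585 on iron-free liver, 9925 on control kidney, 9494 on iron-free kidney, 9404 on untreated FAO cells and 4824 on deferoxamine-treated FAO cells. The levels were 2.18 ± 0.26, 2.04 ± 0.06, 1.75 ± 0.14 and 1.53 ± 0.15 in the 4 tissue samples, in the same order, and no neighbours among them differed beyond 2 standard errors. Scaled to the median of detected probes, control liver exceeded control kidney by 0.86 instead of 0.43. The FAO levels were lower, -0.04 ± 0.08 untreated and -0.64 ± 0.15 with deferoxamine.

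Tdo2 was a gene of liver alone among these samples, by detection. Over its 10 spots the signal on control liver ran from 15736 to 27199 with a median of 22905, and on iron-free liver from 17760 to 18696 with a median of 18268. On control and iron-free kidney the median spots were 16.8 and 16.3, and in FAO cells no spot passed 14.6, none of them well above background. The mean levels in liver were 3.20 ± 0.12 with iron and 2.47 ± 0.03 without, a gap beyond 2 standard errors. The lowest spot on control liver was marked as an outlier and left out of the mean.

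Haao was detected on all 6 arrays. Its signal was 2130 on control liver, 1799 on iron-free liver, 1671 on control kidney, 1342 on iron-free kidney, 2018 on untreated FAO cells and 538 with deferoxamine. In levels, control liver was highest at -0.26 ± 0.24, followed by control kidney at -0.82 ± 0.14, iron-free liver at -0.88 ± 0.08, iron-free kidney at -1.29 ± 0.11, untreated FAO cells at -2.27 ± 0.08 and deferoxamine-treated FAO cells at -3.80 ± 0.50. Control kidney and iron-free liver did not differ beyond 2 standard errors, and every other neighbouring pair did, the first pair by a narrow margin (0.56 against a standard error of 0.28). This order rests on the scaling. Scaled to the median of detected probes, iron-free minus control liver was -0.03 and control liver exceeded control kidney by 0.996. Iron-free liver then stood above control kidney as well.

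Cdo1 was a gene of liver first and kidney second. Its signal was 3033 on control liver, 5253 on iron-free liver, 293 on control kidney and 300.3 on iron-free kidney, with 17.8 and 8.40 in untreated and deferoxamine-treated FAO cells, not well above background. The levels were 0.25 ± 0.24 and 0.67 ± 0.07 in liver and -3.33 ± 0.19 and -3.45 ± 0.19 in kidney, control first. Neither pair within a tissue differed beyond 2 standard errors pooled over all spots, noisy blocks included.

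Miox was brightest in kidney. Its signal was 130979 on control kidney and 101754 on iron-free kidney, 5180 and 4837 on control and iron-free liver, and 202 and 167 on untreated and deferoxamine-treated FAO cells. The levels were 5.47 ± 0.14, 4.95 ± 0.15, 1.02 ± 0.26, 0.55 ± 0.07, -5.58 ± 0.38 and -5.49 ± 0.52 in that order. The liver pair and the FAO pair did not differ beyond 2 standard errors pooled over all spots, noisy blocks included. On iron-free kidney the 2 spots disagreed, at 69216 and 149590, a spread of 0.79 (SD, log2) that the pooled standard error does not show.

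Between control liver and control kidney, 3 of 6 oxygenases were at least 2-fold higher in liver, where 14.9% of 9341 measured genes were, and 1 was at least 2-fold lower, where 26.6% of genes were. Tdo2 was at least 373-fold higher in liver, a bound set against the kidney array's lowest detected signal. Cdo1 was higher by 3.58 ± 0.31 on the log2 scale and Hpd by 1.65 ± 0.29, or 3.14-fold. Miox was 21.9-fold lower in liver (-4.45 ± 0.29). Hgd (0.43 ± 0.29) and Haao (0.56 ± 0.28) stayed within 2-fold. The 4 members past 2-fold were past it in the same direction when arrays were scaled to the median of detected probes.

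Untreated FAO cells had less of each oxygenase than control liver. All 6 were at least 2-fold lower, where 27.8% of 10606 genes were: Hpd at least 1894-fold, Tdo2 at least 1837-fold and Cdo1 at least 237-fold as bounds, Miox 97.4-fold, Hgd 4.66-fold (-2.22 ± 0.27) and Haao 4.01-fold (-2.00 ± 0.25). The summed scaled signal of the 12 hepatocyte markers was 31.4 in untreated FAO cells and 436 in control liver, and its part in these differences was not tested. Against control kidney, 5 of 5 measured members were at least 2-fold lower in FAO cells, where 30.2% of 9709 genes were. With scaling to the median of detected probes, Hgd and Haao came within 2-fold of kidney, at -0.78 and -0.43, and with scaling to the 75th percentile of all probes they remained past it, at -1.57 and -1.22. These comparisons share control arrays and are not independent of each other.

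In FAO cells, deferoxamine went with less Haao RNA. Both untreated Haao spots, at 1982 and 2055, lay above both treated spots, at 476 and 607, and after scaling Haao was 2.90-fold lower with deferoxamine (-1.54 ± 0.51). The differences of the 2 spot positions were -1.74 and -1.34. The deferoxamine array had 10 of 264 blocks of spots with a strong local departure, whose spots enter the pooled standard error. No Haao spot lay in one, and pooled over the spots outside those blocks the standard error was 0.15. Haao was the only member called, 1 of 3 measured, beside 6.52% of 10706 genes that were at least 2-fold lower and 10.6% called in either direction. Of those genes, 357 had a lower difference than Haao. Without spots in noisy blocks, 422 of 10585 genes were at least 2-fold lower, against 698 with them.

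Hgd was 1.51-fold lower with deferoxamine (-0.59 ± 0.17), short of the 2-fold rule, and both untreated spots (9048 and 9773) lay above both treated spots (4672 and 4981). Miox stayed near its untreated value (0.09 ± 0.64), with spots of 183 and 223 untreated and 148 and 188 treated that overlapped, and its difference turned to -0.08 with normexp background correction. Hpd, Tdo2 and Cdo1 could not be compared in FAO cells. The median of the 3 measured members was -0.59, against 0.03 over all measured genes. Under a 1.5-fold rule, Haao and Hgd were both lower, where 11.8% of genes were.

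In liver on the iron-free diet, none of the 6 oxygenases reached 2-fold, where 9.55% of 10175 genes did. Tdo2 stood lowest, 1.66-fold lower than control (-0.73 ± 0.12), and its difference was below 0 at 9 of 9 spot positions, from -0.94 to -0.45. Haao was 1.53-fold lower (-0.62 ± 0.25) and Miox 1.39-fold lower (-0.47 ± 0.27), each with both spot positions below 0. Under a 1.5-fold rule, Tdo2 and Haao were lower, where 9.45% of genes were. Hgd (-0.14 ± 0.27) and Hpd (-0.11 ± 0.27) lay within their standard error of 0. Cdo1 was the only member above 0, at 0.42 ± 0.25, with both iron-free spots (5219 and 5286) above both control spots (2939 and 3129).

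The direction of several liver differences rested on the scaling. The iron-free liver array was brighter as a whole, so that the raw signals of Hpd and Hgd were higher there than on the control array while their scaled levels were lower. With scaling to the median of detected probes, which moved all liver differences by 0.58, Hpd (0.47), Hgd (0.45) and Miox (0.11) turned above 0, Tdo2 came to -0.15, Haao to -0.03, and Cdo1 just met the 2-fold rule, where 21.2% of genes did. Well above background were 47.7% of probes on iron-free liver and 40.2% on control liver, so this median was taken over different probes on the 2 arrays. Scaling to the 75th percentile of all probes moved liver differences by -0.05 and left the sign of every member as it was. Scaling moves every gene of a comparison alike, so the order of the 6 differences, from Tdo2 to Cdo1, is the same under all these scalings. With normexp background correction it changed: Miox stood lowest at -0.80, and Haao and Tdo2 both at -0.61. The control liver array held 27 noisy blocks of 264 and the iron-free array none. Of the members, only Tdo2 had spots there, 2 of 10 on control liver. Pooled over the spots outside noisy blocks, the liver standard errors were smaller, at 0.22 for Miox and 0.21 for Cdo1. Both differences then exceeded 2 standard errors, that of Cdo1 only just, while those of Hpd and Hgd did not.

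In kidney on the iron-free diet, none of the 5 measured oxygenases reached 2-fold, where 4.43% of 8958 genes did, nor did any reach 1.5-fold, where 12.2% of genes did. All 5 were below 0: Miox at -0.52 ± 0.20, Haao at -0.47 ± 0.18, Hpd at -0.44 ± 0.20, Hgd at -0.22 ± 0.20 and Cdo1 at -0.12 ± 0.27. For Miox the 2 spot positions gave -1.19 and 0.16, so they did not share a direction. Both Haao positions were below 0 (-0.51 and -0.43), as were both of Hpd (-0.52 and -0.36). Scaling to the median of detected probes moved kidney differences by 0.20, left Haao at -0.27, Miox at -0.32 and Hpd at -0.24, and turned Cdo1 to 0.08. Of all measured genes in kidney, 55.0% were below 0, with a median of -0.03 against -0.44 for the 5 members.

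Haao, Hgd and Miox were the members measured in all 3 comparisons, and Haao and Hgd were below 0 in each. Haao stood at -1.54 in FAO cells, -0.62 in liver and -0.47 in kidney. Hgd stood at -0.59 ± 0.17, -0.14 ± 0.27 and -0.22 ± 0.20, its liver value within its error of 0. Miox stood at 0.09, -0.47 and -0.52. Of all measured genes, 47.2% were below 0 in FAO cells, 47.9% in liver and 55.0% in kidney. The share of genes below 0 in all 3 was not counted. Hgd turned above 0 in liver with scaling to the median of detected probes. Haao remained below 0 in all 3 under every alternative processing tried, at most -1.33 in FAO cells, -0.03 in liver and -0.27 in kidney. Several of these alternatives could change Haao only through the array scaling or not at all, as it had 1 probe and no flagged spot. In bulk RNA, fewer cells of a type and less RNA per cell cannot be told apart. Beside the liver differences, erythroid markers were at least 2-fold higher for 6 of 8 measured genes, their summed scaled signal going from 10.5 to 34.9, or from 0.742 to 3.03 without Hbb, which gave most of the sum and whose other probe stood at 0.47, with Epb42, Gata1 and Rhag among those not above background on either array. Leukocyte markers were higher for 3 of 10, with sums of 13.1 and 13.4. In kidney, 2 of 8 measured erythroid markers and 2 of 8 stromal and endothelial markers (Col1a2, Col3a1) were at least 2-fold higher, and the erythroid sum went from 7.89 to 17.4, or from 0.861 to 1.44 without Hbb, whose other probe stood at -0.13. Hepatocyte markers in liver (sum 436 to 462) had no gene at least 2-fold lower and 1 of 12 higher (Apoa1, 2.29-fold). Proximal tubule markers in kidney (164 to 161) had none called in either direction. The part of these cell types in the differences of the oxygenases was not tested.

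**Figure D2:**
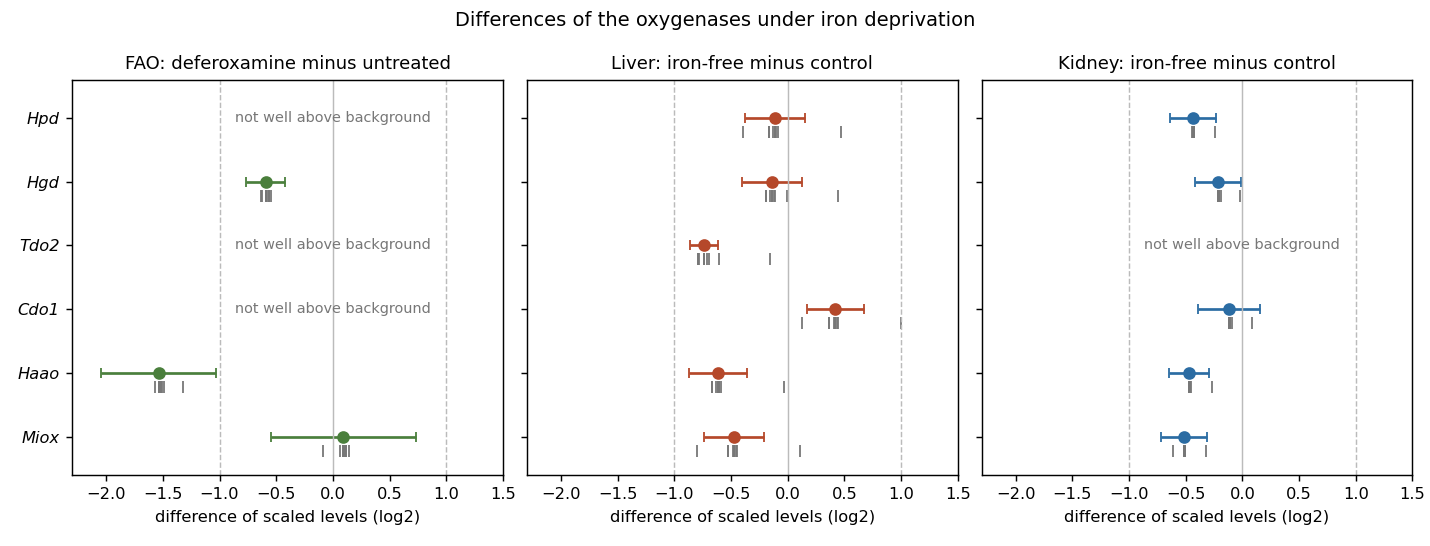
Difference of scaled levels (log2, treated or iron-free minus control, horizontal axis) of each oxygenase in FAO cells, liver and kidney; circles and bars are the difference and its spot standard error, grey ticks the same difference under 9 alternative processings, and dashed lines mark 2-fold. Only Haao in FAO cells (-1.54) lies past a dashed line, and the rightmost grey ticks in liver, from scaling to the median of detected probes, cross 0 for Hpd, Hgd and Miox.

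The other genes of the pathways were counted from lists, each beside its median and that of all measured genes (0.03 in FAO cells, 0.02 in liver and -0.03 in kidney). Of the other genes of phenylalanine and tyrosine breakdown, 12 were measured in FAO cells, of which 1 was at least 2-fold lower and none higher, with a median of -0.21. That gene was Gstz1, which isomerises maleylacetoacetate, the product of Hgd: its single spot went from 16629 to 6209 with deferoxamine (-1.05 ± 0.23), just past the rule. Fah, the last enzyme of the pathway, stood at -0.78 ± 0.20 in FAO cells and Tat, the transaminase that feeds Hpd, at -0.25 ± 0.47. In liver none of 12 was called (median -0.19), with Tat at 0.51 ± 0.26, Fah at -0.23 ± 0.27 and Gstz1 at -0.41 ± 0.38. Got1 stood at 0.75 ± 0.25 in liver, but 1 of its spots lay in a noisy block, and without it Got1 stood at 1.03, past the rule. In kidney none of 11 was called (median -0.03), with Fah at 0.38 ± 0.27 and Gstz1 at -0.30 ± 0.29, while Tat was not above background.

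For tryptophan breakdown and the NAD synthesis it feeds, 12 other genes were measured in FAO cells, with 1 higher, 2 lower and a median of -0.40. Tph1, the iron-dependent hydroxylase of serotonin synthesis, was higher from a dim signal (121 to 208, 1.16 ± 0.93). Aldh8a1 was lower from 257 to 97.3 (-1.03 ± 0.83), and Dhtkd1 was at least 3.34-fold lower. The errors of Tph1 and Aldh8a1 are nearly as large as their differences. Qprt, which uses the quinolinate formed from the product of Haao, stood at -0.27 ± 0.17 beside the -1.54 of Haao. Kmo, which acts upstream of Kynu and Haao, stood at -0.66 ± 0.52. Kynu and Acmsd were not above background in FAO cells.

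In liver 1 of 15 measured tryptophan genes was lower and none higher (median -0.25). It was Nmnat1, an NAD-forming enzyme, at a dim 108 and 65.8 (-1.08 ± 0.58). Acmsd, which draws the product of Haao away from NAD, stood at 0.77 ± 0.29, Qprt at -0.60 ± 0.25, Kynu at -0.26 ± 0.27 and Kmo at 0.10 ± 0.27. However, 1 Kmo spot on the control liver array lay in a noisy block, and without it Kmo stood at -0.62. In kidney none of 12 was called (median -0.08), with Acmsd at 0.22 ± 0.20, Kynu at -0.29 ± 0.18 and Qprt at 0.04 ± 0.25. Kmo was well above background on the iron-free kidney array only, at 244 on both, and gave no difference. Here too 1 Kmo spot on the control array lay in a noisy block, and without it Kmo stood at -1.10, past the 2-fold rule.

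Around Cdo1, 19 genes of cysteine, methionine and taurine metabolism were measured in each comparison. In FAO cells 2 were lower and none higher (median -0.48): Baat, which joins taurine or glycine to bile acids, went from 4892 to 1051 (-1.85 ± 0.25), and Cth, which makes cysteine, from 3995 to 1109 (-1.48 ± 0.25). In liver 1 was lower and none higher (median -0.14), namely Ethe1, the iron-dependent persulfide dioxygenase of mitochondria, from 2468 to 1455 (-1.13 ± 0.25). Ethe1 stood at -0.70 ± 0.25 in kidney. Csad, which acts directly after Cdo1 in making taurine, was at least 3.05-fold higher in iron-free kidney, from 75.9 (not well above background) to 258, the only one called there (median -0.15). In liver Csad had a signal of 91.9 on the control array, not well above background, and 121 on the iron-free array, and no bound was left with scaling to the 75th percentile of all probes. In FAO cells it was not above background. Cth stood at 0.06 ± 0.25 in liver and -0.15 ± 0.18 in kidney.

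Around Miox, 10 genes of inositol synthesis, transport and breakdown were measured in FAO cells, with 2 lower, none higher and a median of -0.36. Sord, sorbitol dehydrogenase, went from 7223 to 822 (-2.77 ± 0.39), but 1 of its spots on the deferoxamine array lay in a noisy block, and without it the difference was -0.51. Dcxr, xylulose reductase, was also lower (-1.58 ± 0.25) with a spot in such a block, and stood at -1.08 without it. In liver, Isyna1, which makes inositol phosphate from glucose phosphate, was higher, 2.83-fold from 253 to 925 (standard error 0.29, log2), and Cryl1, gulonate dehydrogenase, which acts downstream of Miox, was lower, from 735 to 247 (-1.95 ± 0.28), of 11 genes measured (median -0.01). Cryl1 was also below 0 in kidney (-0.72 ± 0.20) and in FAO cells (-0.9999 ± 0.17), there just short of the 2-fold rule. Its FAO difference was -1.03 without spots in noisy blocks and -0.95 with scaling to the median of detected probes.

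In kidney, Slc5a3, the sodium-coupled inositol transporter, was higher, from 941 to 2326 (1.15 ± 0.18), the only one called of 13 measured inositol genes (median -0.03). Isyna1 stood at 0.37 ± 0.18 in kidney and -0.07 ± 0.15 in FAO cells, and Slc5a3 at -0.17 ± 0.47 in FAO cells and at least 1.91-fold higher in liver. Of other oxygenases and hydroxylases that use iron or heme on amino acids and related molecules, 1 of 6 measured in FAO cells was called (Tph1, higher), none of 7 in liver and none of 5 in kidney, with medians of 0.35, 0.15 and 0.06. In FAO cells that median lay above 0 while the median of the 3 measured members lay below it. With scaling to the median of detected probes, the medians of the tyrosine, tryptophan, cysteine and inositol lists turned above 0 in liver (0.40, 0.33, 0.44 and 0.57) and kidney (0.17, 0.12, 0.05 and 0.17) and stayed below it in FAO cells. Nmnat1 (-0.50) and Ethe1 (-0.55) in liver and Aldh8a1 (-0.98) in FAO cells then came within 2-fold, and Cryl1 in liver remained past it (-1.37). Under that scaling Tat (1.09), Got1 (1.33), Ido2 (1.12), Acmsd (1.35), Slc6a6 (1.51) and Slc5a3 (at least 1.51, log2) were past 2-fold higher in liver, and Akr1b1 (1.07) in kidney, all of them within 2-fold under the scaling used throughout. Got1, however, passed it in liver under the scaling used throughout (1.03) once its spot in a noisy block was left out.

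**Figure D3:**
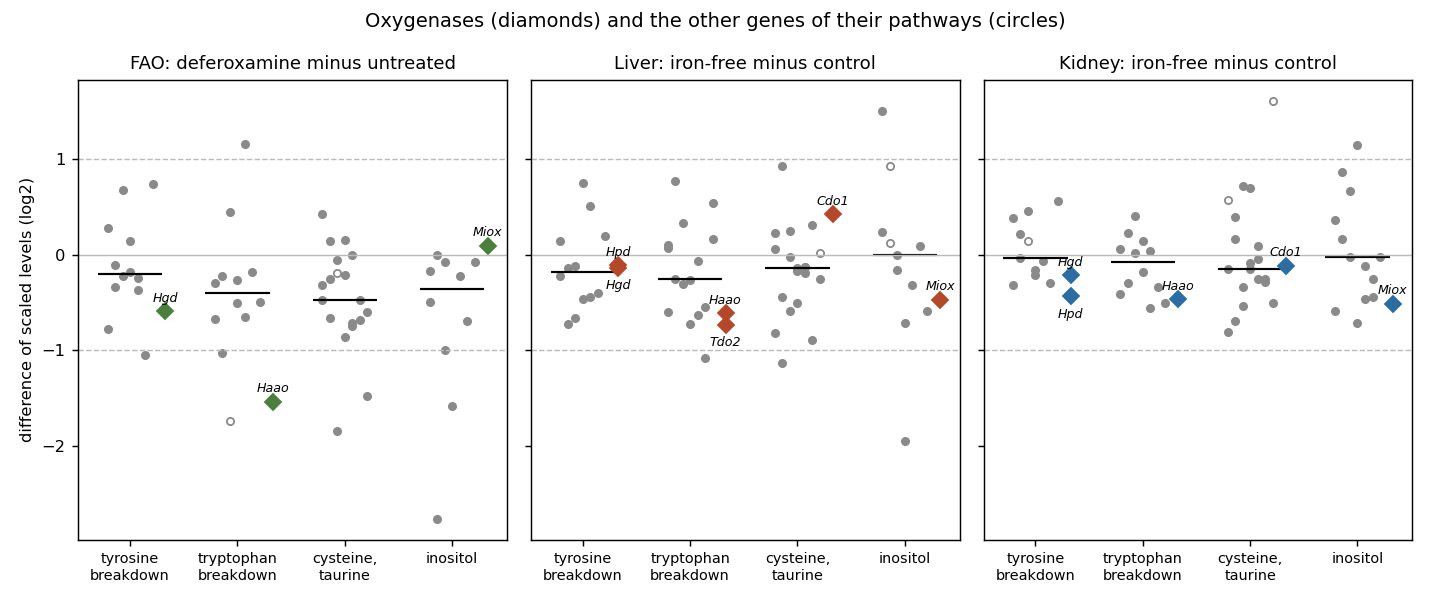
Differences of scaled levels (log2, vertical axis) of the other genes of the 4 pathways (grey circles, open where the value is a bound, black line at the median) beside the oxygenase that belongs to each (coloured diamonds), in FAO cells, liver and kidney. Haao at -1.54 lies below all measured tryptophan genes but Dhtkd1 in FAO cells, and in liver Tdo2 and Haao lie below the list's median of -0.25.

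The genes whose scaled levels ran most like a member's were taken from genes well above background on the same arrays, after centring each gene on its mean, by the root mean square distance. For Hgd, over 6 arrays and 6470 genes, these were Ivd (distance 0.11, r 0.996), Mmut (0.14) and Rilp (0.16). Ivd and Mmut act in the breakdown of branched-chain amino acids and of propionate, and stood at -0.60 and -0.55 in FAO cells beside the -0.59 of Hgd. In liver Ivd and Mmut stood at -0.48 and -0.36 beside -0.14 for Hgd, and in kidney at -0.17 and 0.11 beside -0.22. Rilp stood at -0.23 in FAO cells, 0.12 in liver and -0.17 in kidney. For Haao, over the same arrays, they were Itga2b (0.22), Iscu (0.27) and LOC361942 (0.29). Iscu, the scaffold on which iron-sulfur clusters are built, was at -1.76 in FAO cells, -0.45 in liver and -0.24 in kidney.

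For Miox no gene came close: the nearest, Sod3, Agxt2 and Sult1c2, lay at distances of 0.93 to 1.07. For Hpd, over the 4 tissue arrays and 397 genes, the nearest were Upk1b (0.05), Cxcl12 (0.07) and Dpys (0.07), the last of them the liver and kidney enzyme of pyrimidine breakdown. For Cdo1 they were Enpp2 (0.05), Egfr (0.23) and Akr1c2 (0.23). In liver Enpp2 stood at 0.35, Egfr at -0.18 and Akr1c2 at 0.60, beside the 0.42 of Cdo1. Tdo2 was above background on 2 arrays only, too few for such a comparison. All these distances rest on 4 or 6 arrays that share a slide, and the choice of the nearest out of many genes favours small distances. The differences set beside those of a member come from the same arrays as the distances, so their closeness follows in part from that choice.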

How the data were processed

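Per the file headers, the authors scanned 6 one-colour arrays of design 028279 with Agilent Feature Extraction 10.7.3.1 and deposited a background-subtracted intensity per spot (gProcessedSignal). The authors' deposited table holds a log2 value and a gene symbol per probe; it was used for gene names and as an alternative. Outlier spots were left out, log2 intensities of a probe's spots averaged, and each array scaled to its 75th percentile over 9094 probes, those that passed background everywhere. The brightest probe stands for a gene. Where 1 array of a pair was not well above background, the difference is a bound: the dim side was set to its own signal or, if that was higher, to the lowest signal detected on its array. The spot standard error was pooled in 20 bins of signal. A block of 16 by 16 spots was called noisy when the median absolute departure of its spots passed 0.5 (log2). A departure is a spot minus the mean of its probe's other spots, taken for probes well above background.

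Named genes were all 6 members, called genes of 5 pathway lists (up to 4 per list, direction and comparison), 12 pathway genes in every comparison (some values are not reported here) and the 3 nearest patterns per member. Markers came from 6 lists. The other kidney segment markers were 10 of 10 above background on both kidney arrays, with none called. Stromal and endothelial markers in liver had 1 of 10 higher. Members and lists were chosen with earlier results of these data known. The number of arrays limits the precision. Values were computed in Python 3.11.15 (numpy 2.4.6, pandas 2.3.3) and tested on simulated data, and normexp (offset 50) ran in limma 3.58.1 under R 4.3.3, on median spot and background intensities. Gene symbols, where the gene ID matched (19142 of 19958), are those of RefSeq.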

Additional observations from a re-analysis of the deposited data

How the results depend on the processing

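With 1 array per group, no replicate could be left out, and no paired analysis was possible because every group holds 1 array, so that groups share fewer than 2 replicate numbers. Haao in FAO cells ranged from -1.57 to -1.33 over 9 alternatives and kept its call in each. Several of these could not have changed it. Haao had 1 probe and 2 spots, so the median over a gene's probes and that of same-place spot differences repeat the main value. None of its spots was an outlier or in a noisy block, so the alternatives on spots and detection moved only the array scaling. The authors' values nearly repeated the scaling to all probes (both -1.51). At a 1.5-fold rule, 2 members were called in FAO cells (Haao, Hgd) and 2 in liver (Tdo2, Haao), none in kidney. With scaling to the median of detected probes 1 member was called in liver (Cdo1, higher), and the genes called in liver came to 2201, of which 96.4% were higher, against 68.3% of 972, and in kidney 83.2% of calls were higher against 70.8%. With normexp, 547 genes were called in liver and 264 in kidney, and the Hpd, Cdo1 and Miox differences in liver came to -0.40, 0.13 and -0.80. Under a laxer detection rule (1 spot of 2 enough), 1839 genes were called in FAO cells, 1534 in liver and 891 in kidney. At 1.5-fold these were 2393, 2444 and 1097. Without spots in noisy blocks, 50.9% of the calls in FAO cells were higher, against 38.4%. One alternative, the median of same-place spot differences, was added after seeing the data. Of the member differences under alternatives, 115 stayed within their spot standard error and 11 moved by more. The 115 include alternatives that could not change a member, as each has 1 probe and all but Tdo2 have 2 spots. Signal over background kept Hpd, Tdo2 and Cdo1 in FAO cells and Tdo2 in kidney out of comparison.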
